A study of Homo sapiens with 6 samples.

Results

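The genes described here encode the core machinery of RNA interference and of microRNA production. They are 10 genes chosen by name, AGO1, AGO2, AGO3, AGO4, DICER1, TARBP2, DROSHA, DGCR8, XPO5 and TNRC6A, out of 60623 genes in the deposited expression table. Transcripts were measured in 3 libraries of LX2 cells transfected with an siRNA against the serine hydroxymethyltransferase gene SHMT2 (siSHMT2, labelled SHMT2 knockdown) and in 3 libraries transfected with the control siRNA siNC (labelled WT). LX2 is an immortalised human hepatic stellate cell line, and all cells were maintained in DMEM with 2% serum and antibiotics and transfected for 36 h. Every library thus came from cells that had received a short duplex RNA, and untransfected cells were not analysed here. The labels do not say whether replicates were separate cultures, so p-values measure the spread between these libraries, which may be technical.

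In the nucleus, DROSHA, an RNase III enzyme, and its RNA-binding partner DGCR8 form the microprocessor, which cuts hairpins out of primary microRNA transcripts. XPO5 carries the hairpins to the cytoplasm, where DICER1, a second RNase III enzyme, cuts them into short duplexes with help from the double-stranded RNA-binding protein TARBP2. One strand is loaded into an Argonaute protein (AGO1 to AGO4), and TNRC6A, a scaffold of the GW182 family, links the loaded Argonaute to deadenylation and decapping of the paired mRNA. A synthetic siRNA is already short, and enters this route at the loading step.

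The libraries held 14722344 to 15669139 reads, recovered as whole numbers from the FPKM (fragment counts divided by gene length and a library total) and the gene length. The totals behind the FPKM ran from 14487813 to 17495471 and were not these sums. That of siNC replicate 2, 14487813, was below its 15135070 reads, so its FPKM are scaled up relative to the other libraries. Whether groups overlap is therefore also given for TPM and for reads scaled to each library's recovered total (recovered reads below), a check added after seeing the data. SHMT2 was 2.25, 2.10 and 2.42 FPKM in siSHMT2 libraries and 40.8, 56.3 and 45.1 FPKM in siNC libraries, so its level in siSHMT2 was 4.77% of that in siNC. All 8 stellate markers checked had a mean of at least 1 FPKM, with a summed level of 1460 to 1674 FPKM in siSHMT2 and 1880 to 2767 FPKM in siNC. None of the 5 hepatocyte and 4 endothelial markers reached 1 FPKM. Of 5 leukocyte markers only CD14 did (summed level 13.4 to 15.1 FPKM in siSHMT2 and 14.2 to 19.01 in siNC), and of 4 cholangiocyte markers KRT7 and SOX9 did (8.72 to 9.64 FPKM in siSHMT2 and 9.82 to 11.2 in siNC). The library siNC replicate 2 had the fewest genes above 0, 18723, against 20559 to 21136 in the other libraries.

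Of the 10 genes, 7 had a mean of at least 1 FPKM over the 6 libraries and were tested with limma on log2(FPKM + 1), together with all 10865 genes past that filter. DICER1 was lower in siSHMT2 cells, by 2.70-fold in mean FPKM, and it was the only tested member with a limma adjusted p under 0.05 (Benjamini-Hochberg over all genes tested). The other 6 tested members, DROSHA, DGCR8, XPO5, TARBP2, AGO1 and AGO2, were not called. AGO3, AGO4 and TNRC6A lay below the filter. Among all genes tested, 15.9% were called, 9.85% lower and 6.07% higher, so 1 member lower and 0 higher of 7 is a count near that background. At an unadjusted limma p under 0.05 there was 1 member lower and 1 higher, and the share of all genes at that threshold is not given here. Limma voom on recovered reads called 1 member lower and 0 higher, beside 853 lower and 914 higher of all 10865 genes. The lower share of all calls was 61.9%, but 47.5% after rescaling to TPM, 48.3% with voom and 52.0% with array weights. The median log2 fold change of the 7 members was -0.12, against 0.02 for all genes tested.

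**Figure D1:**
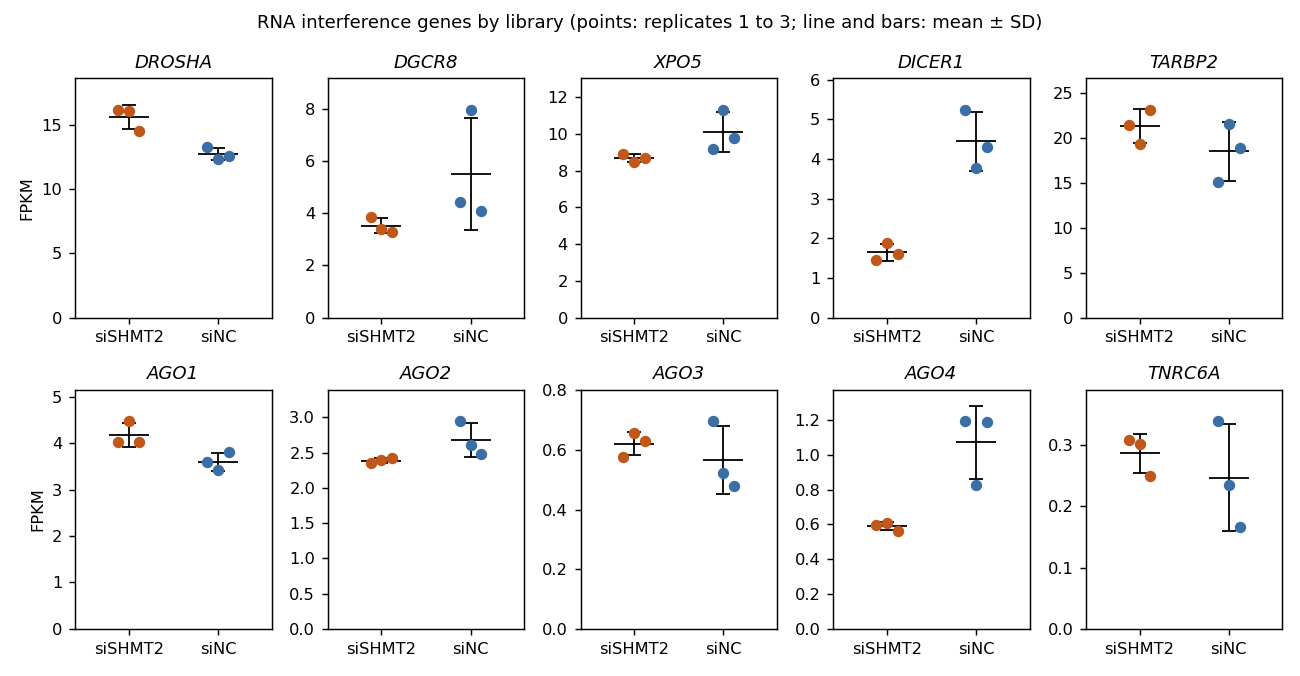
FPKM of the 10 RNA interference genes in each library, siSHMT2 (orange) left of siNC (blue), with the mean and SD of 3 replicates; each panel has its own axis from 0. DICER1 was 1.45 to 1.88 FPKM in siSHMT2 and 3.78 to 5.24 FPKM in siNC, while 1 siNC library stood high for DGCR8.

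DICER1, which makes mature microRNAs from hairpin precursors, was 1.45, 1.88 and 1.61 FPKM in siSHMT2 libraries, from 286, 383 and 313 reads. It was 5.24, 3.78 and 4.31 FPKM in siNC libraries, from 1128, 674 and 834 reads. The highest siSHMT2 library lay far under the lowest siNC library, also in TPM and in recovered reads, and the siSHMT2 mean came to 37.0% of that in siNC (1.65 ± 0.216 and 4.45 ± 0.740 FPKM, SD, n = 3 each). On the log2(FPKM + 1) scale DICER1 fell by 1.04 (SE 0.128, 95% interval -1.33 to -0.74, limma adjusted p = 0.00197). Only 1.89% of the genes tested had a lower fold change, and 1.93% of them were called and at least 2-fold lower on this scale. In bulk RNA, a lower level in every cell and a loss in some of the cells cannot be told apart. DICER1 remained called in each of 15 alternative fits, with log2 fold changes between -1.37 and -0.93 and adjusted p between 6.62e-05 and 0.0162. The antisense gene DICER1-AS1 overlaps DICER1 and averaged 0.129 FPKM in siSHMT2 and 0.0824 FPKM in siNC, and the sources used here do not say whether counting used strand.

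DICER1 (chr14:95086228-95158010, minus strand, coordinates as in the table, which match GRCh38) was searched for the words of 7 bases GACTTTA and ACTTTAA, read on the transcript strand. An earlier look at these data had picked these words because genes that hold them in the 3′ UTR tended to be lower in siSHMT2. They overlap by 6 bases. The sources used here do not give the sequence of either siRNA, and a match to one was not tested. The 3′ UTR of DICER1, 4270 bases in its longest GENCODE release 29 form, held neither word, whereas 24.6% of the 3′ UTRs of 9382 tested protein-coding genes held one. The coding sequence of DICER1 (5769 bases) held both words, joined into GACTTTAA at 1 place, and ACTTTAA alone at another. The stretch shown for the latter crosses an exon junction. SHMT2, the siRNA target, held GACTTTA in its own coding sequence. The stretches are shown because they place the words in the one called member and in the siRNA target, with the words in capitals and 5′ to 3′ on the transcript.
DICER1 coding sequence, chr14:95107717-95107746, minus strand: ctttggatattGACTTTAAattcatggaag
DICER1 coding sequence, across an exon junction: aaagagattctACTTTAAtttcgaaacaga
SHMT2 coding sequence, chr12:57234048-57234077, plus strand: ggagagttgtgGACTTTAtagatgaagggg

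A word in the coding sequence was less common than in the 3′ UTR: 1117 of the 9382 genes (11.9%) had one in their longest coding sequence, and 245 (2.61%) had GACTTTAA there. Of these 245 genes, 165 had, like DICER1, no word in the 3′ UTR, and 29 of the 165 were called lower (17.6%) and 4 higher, with a median log2 fold change of -0.13. The other 80 had a 3′ UTR word as well, and 23 of them were called lower (28.7%). DICER1 belongs to the 752 genes with a word in the coding sequence and none in the 3′ UTR, of which 84 were called lower (11.2%) and 30 higher, with a median of -0.03. Of all 9382 genes searched, 960 were called lower and 590 higher, with a median of 0.02, so the lower share of this class is near that of all genes. For comparison, 324 of 6323 genes with no word in either region were called lower (5.12%), with a median of 0.07. Of the genes with a 3′ UTR word, 108 of 365 with a coding word as well (29.6%) and 444 of 1942 without one (22.9%) were called lower. The words were picked on these same fold changes and the shares are not adjusted for length: the median coding sequence had 2159 bases in the class of DICER1 and 1269 bases in genes with no word. They describe the classes and are no test of DICER1.

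TARBP2, the partner that steadies DICER1 and takes part in loading, was 21.4, 19.3 and 23.1 FPKM in siSHMT2 libraries and 15.0, 21.5 and 18.9 FPKM in siNC libraries. The groups overlapped in FPKM, though not in TPM or recovered reads, where all siSHMT2 libraries were higher, and the difference was not called (log2 fold change 0.20, 95% interval -0.13 to 0.54, limma adjusted p = 0.396). Without siNC replicate 1, the lowest library, the log2 fold change was 0.07, and without siNC replicate 2, the highest siNC library, it was 0.31. These were the extremes over the 16 alternatives, none of which called TARBP2. TARBP2 was the most abundant member per length in both groups. The ratio of TARBP2 to DICER1 FPKM, which does not depend on library scaling, was 14.7, 10.3 and 14.4 in siSHMT2 and 2.87, 5.69 and 4.39 in siNC. It averaged 13.1 ± 2.47 and 4.31 ± 1.41 (SD, n = 3 each), with no overlap and an exact two-sided permutation p of 0.1, the smallest that 3 against 3 libraries allow (0.175 adjusted over the 7 ratios, shares and sums compared).

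**Figure D2:**
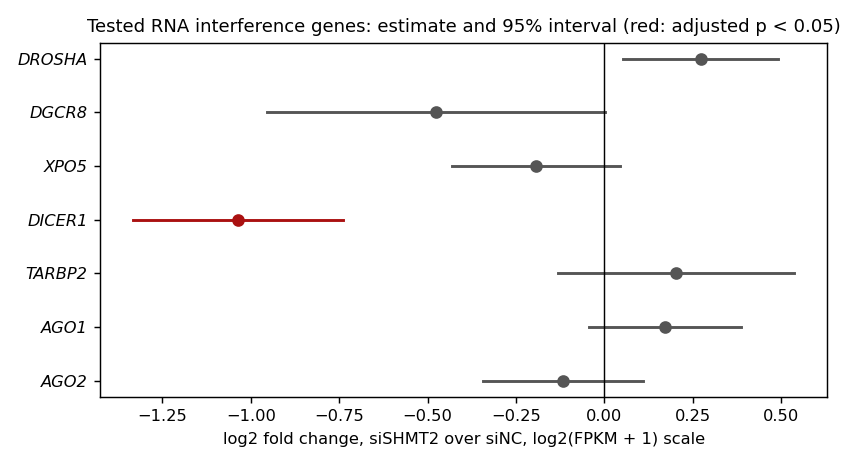
Log2 fold change of the 7 tested RNA interference genes, siSHMT2 over siNC, on the log2(FPKM + 1) scale (x axis), with the 95% interval from limma. DICER1, in red, is at -1.04 and is the only one with an adjusted p under 0.05; the DROSHA interval runs from 0.05 to 0.49.

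DROSHA, the catalytic subunit of the microprocessor, was 16.2, 16.1 and 14.5 FPKM in siSHMT2 libraries, from 2016, 2071 and 1782 reads. In siNC libraries it was 13.2, 12.3 and 12.6 FPKM, from 1802, 1390 and 1537 reads. All siSHMT2 libraries were above all siNC libraries in FPKM and in recovered reads, while in TPM the groups overlapped. The siSHMT2 mean was 123% of that in siNC. The difference was not called (log2 fold change 0.27, SE 0.0946, 95% interval 0.05 to 0.49, limma adjusted p = 0.0931). It was called with array weights, which weigh libraries by their noise (0.31, limma adjusted p = 0.00821). That fit called 1976 of all genes lower and 1827 higher, against 1070 and 659 in the main fit. Over all 16 alternatives the log2 fold change of DROSHA was 0.25 to 0.38 and its adjusted p 0.00821 to 0.320.

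DGCR8, the RNA-binding subunit that holds the hairpin for DROSHA, was 3.86, 3.41 and 3.30 FPKM in siSHMT2 libraries and 4.45, 7.98 and 4.07 FPKM in siNC libraries. The groups did not overlap in FPKM but did in TPM and in recovered reads, and siNC replicate 2 was far above the other siNC libraries (846 reads, against 570 and 469). The log2 fold change was -0.48 (SE 0.207, 95% interval -0.95 to 0.00, limma adjusted p = 0.167), and -0.22 without siNC replicate 2 (adjusted p = 0.187). TRMT2A, a tRNA methyltransferase gene that overlaps DGCR8 on the opposite strand, was also highest in siNC replicate 2: it was 8.99, 8.15 and 11.4 FPKM in siSHMT2 and 10.1, 14.9 and 12.5 FPKM in siNC. Its part in the DGCR8 value was not tested. The microprocessor is known to cut hairpins in the DGCR8 mRNA itself. The hairpin genes MIR3618 and MIR1306, which lie within DGCR8 on the same strand, were listed at 0. Cutting of the DGCR8 mRNA was not tested, and these zeros do not measure it.

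The ratio of DGCR8 to DROSHA FPKM was 0.239, 0.213 and 0.228 in siSHMT2 libraries and 0.336, 0.647 and 0.325 in siNC libraries. Every siSHMT2 library was below every siNC library (mean 0.227 ± 0.0132 and 0.436 ± 0.183, SD, n = 3 each; exact two-sided permutation p = 0.1, the smallest possible, 0.175 adjusted). The difference between the means was -0.21, and -0.10 without siNC replicate 2.

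XPO5, the exportin of precursor hairpins, was 8.91, 8.49 and 8.67 FPKM in siSHMT2 libraries and 9.21, 11.3 and 9.81 FPKM in siNC libraries. The groups did not overlap in FPKM or recovered reads, by a narrow margin, but did in TPM, and the difference was not called (log2 fold change -0.19, 95% interval -0.43 to 0.04, limma adjusted p = 0.255). Without siNC replicate 2 the log2 fold change was -0.12. POLR1C, a polymerase subunit gene that overlaps XPO5 on the opposite strand, averaged 6.45 FPKM in siSHMT2 and 8.64 FPKM in siNC (limma adjusted p = 0.191).

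Among the Argonautes, AGO1 was the most abundant per length and AGO2, which can cleave a fully paired target, came next. AGO1 was 4.03, 4.48 and 4.03 FPKM in siSHMT2 libraries and 3.59, 3.41 and 3.80 FPKM in siNC libraries. The siSHMT2 libraries were all higher, also in recovered reads and, by a narrow margin, in TPM, but the difference was not called (log2 fold change 0.17, from 0.10 to 0.29 in the alternatives, 95% interval -0.04 to 0.39, limma adjusted p = 0.265). AGO2 was 2.35, 2.39 and 2.42 FPKM in siSHMT2 libraries and 2.95, 2.61 and 2.49 FPKM in siNC libraries, without overlap by a narrow margin (log2 fold change -0.12, 95% interval -0.34 to 0.11, limma adjusted p = 0.466). In TPM and in recovered reads the AGO2 groups overlapped, and its log2 fold change was -0.07 without siNC replicate 1 and -0.06 with TPM. In FPKM, groups that do not overlap were seen for 6 of the 7 tested members, 4 lower and 2 higher, and for 36.4% of all genes tested (18.6% lower, 17.9% higher). The count depended on the scaling: it was 3 members in TPM, 1 lower and 2 higher (34.8% of all genes), and 5 in recovered reads, 2 lower and 3 higher (36.9%). Of the 7, DICER1 and the uncalled AGO1 were apart in the same direction in all 3 scalings. The share of all genes apart in all 3 is not given here, so this count has no background.

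AGO4, an Argonaute without slicing activity, was 0.597, 0.609 and 0.562 FPKM in siSHMT2 libraries, from 71, 75 and 66 reads. It was 1.19, 0.828 and 1.19 FPKM in siNC libraries, from 155, 89 and 139 reads. Every siSHMT2 library was lower, also in TPM and recovered reads, and their mean was 55.1% of that in siNC (0.589 ± 0.0243 and 1.07 ± 0.210 FPKM, SD, n = 3 each). In 3 fits that hold all 10 members, 2 of them added after seeing the data, AGO4 was not called. It had a log2 fold change of -0.38 with no filter (limma adjusted p = 0.188, 3.46% of 27069 genes called). With a mean of at least 0.2 FPKM and a pseudocount of 0.1 it was -0.75 (adjusted p = 0.0738, 9.91% of 15565 genes called). With voom on recovered reads it was -0.76 (95% interval -1.32 to -0.20, adjusted p = 0.0799, 11.2% of the same genes called).

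AGO3 was 0.578, 0.656 and 0.631 FPKM in siSHMT2 libraries and 0.697, 0.522 and 0.481 FPKM in siNC libraries, and the groups overlapped. Its log2 fold change in the voom fit was 0.23 (95% interval -0.24 to 0.69, adjusted p = 0.542). AGO4, AGO1 and AGO3 lie side by side on the plus strand of chromosome 1 (35808016 to 36072500 in the table), with 11917 bases between AGO4 and AGO1 and 185 bases between AGO1 and AGO3. Adjacent members of this cluster thus gave unlike values, lower in all siSHMT2 libraries for AGO4 and higher in all of them for AGO1.

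The summed Argonaute level was 7.56, 8.13 and 7.65 FPKM in siSHMT2 libraries and 8.43, 7.37 and 7.96 FPKM in siNC libraries, with overlap (exact permutation p = 0.7). Within that sum, AGO1 made up 53.7 ± 1.19% in siSHMT2 and 45.5 ± 2.68% in siNC. The AGO4 share was 7.58 ± 0.278% in siSHMT2 and 13.4 ± 1.96% in siNC (SD, n = 3 each). Both shares differed without overlap, at an exact permutation p of 0.1, the smallest possible (0.175 adjusted). The AGO2 share was 30.7 ± 1.18% in siSHMT2 and 33.9 ± 2.29% in siNC (exact permutation p = 0.2) and the AGO3 share 7.99 ± 0.311% and 7.13 ± 1.12% in the same order (exact permutation p = 0.4), both with overlap.

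**Figure D3:**
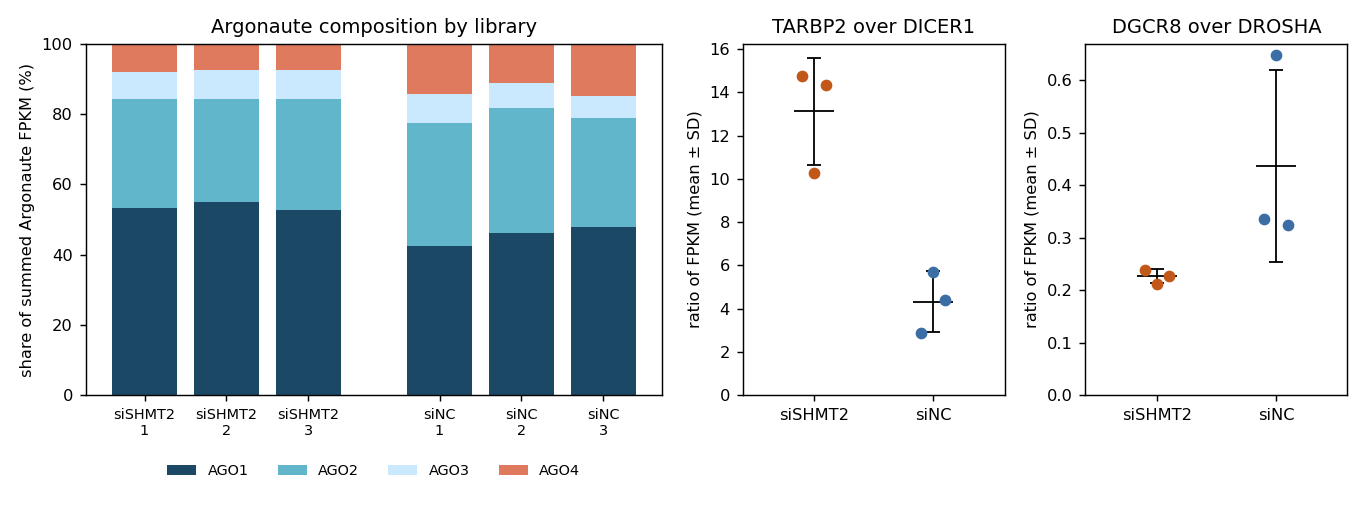
Left, the share of each Argonaute gene in the summed Argonaute FPKM of each library (bars, percent), siSHMT2 libraries left of siNC libraries; AGO4 averaged 7.58% in siSHMT2 and 13.4% in siNC. Middle and right, the FPKM ratios of TARBP2 to DICER1 and of DGCR8 to DROSHA by library, with mean and SD of 3 replicates.

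The Argonautes and DROSHA were the members with the words GACTTTA or ACTTTAA in the 3′ UTR, and they did not share a direction. AGO1 held ACTTTAA at 2 places in a 3′ UTR of 10921 bases, AGO2 held it once in 11888 bases, and AGO3 held it 4 times and GACTTTA once in 16755 bases. AGO4 had 1 copy of each word in 4285 bases and DROSHA 1 of each in only 935 bases. TARBP2, DGCR8, XPO5 and TNRC6A had neither word in the 3′ UTR, and besides DICER1, TNRC6A had GACTTTA and AGO2 had ACTTTAA once each in the coding sequence. Sites are shown for the members that hold GACTTTA in the 3′ UTR. All sites of AGO4 and DROSHA are given, but only the GACTTTA site of AGO3, whose 4 ACTTTAA sites are left out. In FPKM AGO4 was lower in all siSHMT2 libraries, DROSHA was higher in all of them (with overlap in TPM) and AGO3 overlapped. The words are in capitals, 5′ to 3′ on the transcript, in GRCh38.
AGO4 3′ UTR, chr1:35853876-35853905, plus strand: actttctaaagGACTTTAcaagaagggttt
AGO4 3′ UTR, chr1:35856304-35856333, plus strand: tgcatagttttACTTTAAttcggcttgaca
DROSHA 3′ UTR, chr5:31401054-31401083, minus strand: agtaaaaaattGACTTTActagacattttg
DROSHA 3′ UTR, chr5:31400775-31400804, minus strand: agccaggccacACTTTAAaccaagtgctct
AGO3 3′ UTR, chr1:36068734-36068763, plus strand: gtatttattctGACTTTAttatacagctta
A word in the annotated 3′ UTR does not show that the LX2 transcript includes it, and transcript forms were not measured here.

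TNRC6A was the least abundant member, at 0.308, 0.302 and 0.249 FPKM in siSHMT2 libraries (64, 65 and 51 reads) and 0.339, 0.234 and 0.167 FPKM in siNC libraries (77, 44 and 34 reads). The groups overlapped, and its log2 fold change in the voom fit was 0.34 with a wide interval (-0.36 to 1.04, adjusted p = 0.541). Its relatives TNRC6B and TNRC6C were more abundant. TNRC6B averaged 1.25 ± 0.191 FPKM in siSHMT2 and 1.40 ± 0.301 FPKM in siNC (SD, n = 3 each; limma adjusted p = 0.727). TNRC6C averaged 0.992 ± 0.0370 and 1.30 ± 0.166 FPKM in the same order (limma adjusted p = 0.285).

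Ordered by mean FPKM in siSHMT2 libraries, the members ran TARBP2, DROSHA, XPO5, AGO1, DGCR8, AGO2, DICER1, AGO3, AGO4 and TNRC6A. In siNC libraries the order was TARBP2, DROSHA, XPO5, DGCR8, DICER1, AGO1, AGO2, AGO4, AGO3 and TNRC6A. DICER1 was thus at place 7 in siSHMT2 and place 5 in siNC. Neighbours whose libraries overlapped were AGO3 and AGO4 in siSHMT2, and DGCR8 with DICER1 and DICER1 with AGO1 in siNC. In siSHMT2 every library had less DICER1 than AGO2, whereas in siNC every library had more.

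Genes that work beside the core machinery were described through 98 further genes in 8 lists, of which 75 passed the filter; 6 were called lower and 2 higher. Neither share was above the 9.85% lower and 6.07% higher of all genes tested. The median log2 fold change of the 75 genes was -0.09. Unadjusted counts for the lists below stand without a share of all genes, which is not given here. Voom called 853 of all 10865 genes lower and 914 higher.

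Decapping and decay factors, which remove the cap and digest the mRNA after deadenylation, had 2 of 15 tested members lower and 2 higher by limma. Among all genes tested, 9.85% were lower and 6.07% higher. By voom the list had 2 lower and 2 higher. At an unadjusted p under 0.05 it had 5 lower and 2 higher, a count without background, since the shares above are not for that threshold. LSM14B, a paralog of the P-body protein LSM14A, was 10.9 ± 0.970 FPKM in siSHMT2 and 23.2 ± 3.59 FPKM in siNC (SD, n = 3 each; log2 fold change -1.02, limma adjusted p = 0.00226). DCP2, the decapping enzyme, was 2.47 ± 0.273 and 4.07 ± 0.446 FPKM in the same order (-0.55, limma adjusted p = 0.0162). LSM1, a subunit of the ring that binds deadenylated ends, was 13.1 ± 0.835 FPKM in siSHMT2 and 7.56 ± 0.638 FPKM in siNC (0.72, limma adjusted p = 0.00326). EDC3, an enhancer of decapping, was 17.0 ± 0.646 and 11.1 ± 1.41 FPKM in the same order (0.58, limma adjusted p = 0.0138). Leaving out siSHMT2 replicate 1, 2 or 3 ended the DCP2 call (limma adjusted p = 0.0538, 0.0529 and 0.0725), and leaving out siSHMT2 replicate 1 or 3 ended that of EDC3 (0.0740 and 0.0632). The DCP2 call also ended with TPM and with no filter (limma adjusted p = 0.0975 and 0.0608), so 5 of 15 alternatives lost it.

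Deadenylation genes had 1 of 15 tested members lower and 0 higher by limma (at an unadjusted p under 0.05, 4 lower and 1 higher; by voom, 1 and 1). The lower one was CNOT6, a catalytic deadenylase of the CCR4-NOT complex, at 2.69, 3.44 and 3.47 FPKM in siSHMT2 libraries and 7.74, 5.92 and 6.53 FPKM in siNC libraries. The groups were well apart (log2 fold change -0.88, SE 0.127, limma adjusted p = 0.00369), and the call remained in all 15 alternatives. Its paralog CNOT6L was not called (log2 fold change -0.11, limma adjusted p = 0.538).

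Microprocessor cofactors had 1 of 16 members lower and 0 higher by limma (unadjusted, 5 lower and 1 higher; by voom, 0 and 0). SRSF3, a splicing factor that also aids recognition of primary microRNAs, was 38.1 ± 3.08 FPKM in siSHMT2 and 53.5 ± 5.00 FPKM in siNC (SD, n = 3 each; log2 fold change -0.48, limma adjusted p = 0.0326). The call ended when siSHMT2 replicate 1, 2 or 3 was left out (limma adjusted p = 0.151, 0.0688 and 0.140). It also ended with TPM, with no filter and with the replicate block (limma adjusted p = 0.116, 0.0684 and 0.0693). In all, 8 of 16 alternatives lost it. The helicases DDX5 and DDX17 averaged 28.1 and 17.6 FPKM in siSHMT2 and 36.7 and 20.2 FPKM in siNC, and neither was called (limma adjusted p = 0.143 and 0.238).

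No gene was called among 15 for dicing and loading (limma; unadjusted 0 lower and 1 higher; voom 0 and 0), among 6 tested for hairpin export and modification (unadjusted 1 lower and 0 higher; voom 0 and 0) or among the 2 GW182 relatives (unadjusted and voom 0 and 0). The medians of these lists were 0.10, -0.08 and -0.14. PRKRA, the other known DICER1 partner, was 1.97, 2.87 and 2.17 FPKM in siSHMT2 libraries and 2.18, 0.800 and 1.44 FPKM in siNC libraries, with overlap (limma adjusted p = 0.189). LIN28A and LIN28B, which block let-7 maturation, were listed at 0 in all 6 libraries, and none of the 4 PIWI genes passed the filter.

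MicroRNA host genes, the long transcripts from which some microRNAs are cut, had 2 of 6 tested members lower and 0 higher by limma. Among all genes tested, 9.85% were lower and 6.07% higher. By voom the list had 1 lower and 0 higher. At an unadjusted p under 0.05 it had 4 lower and 0 higher. The shares above are not for that threshold, so this count has no background. MIR503HG was 11.2, 8.33 and 9.53 FPKM in siSHMT2 libraries and 17.6, 20.7 and 18.7 FPKM in siNC libraries, well apart (log2 fold change -0.91, limma adjusted p = 0.00300). MIR222HG was 7.39, 9.44 and 8.59 FPKM in siSHMT2 libraries and 18.2, 11.1 and 14.5 FPKM in siNC libraries (-0.70, limma adjusted p = 0.0331). MIR222HG was not called in 10 of 16 alternatives, among them leaving out siNC replicate 3 or siSHMT2 replicate 1, 2 or 3 (limma adjusted p = 0.0853, 0.131, 0.0685 and 0.0935). Mature microRNAs were not measured.

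**Figure D4:**
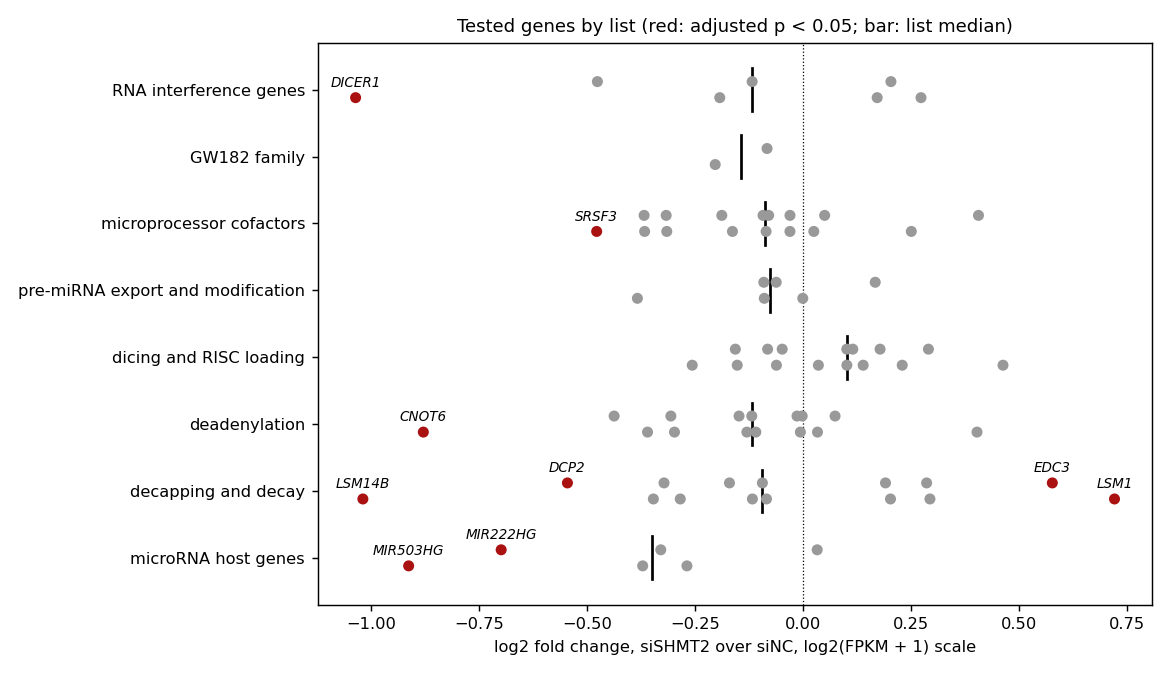
Log2 fold change, siSHMT2 over siNC, on the log2(FPKM + 1) scale (x axis) of each tested gene (points) by list, with list medians as bars and called genes in red with their names. DICER1 and LSM14B lie furthest to the left, at -1.04 and -1.02, and LSM1 furthest to the right, at 0.72.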

How the data were processed

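The authors deposited 1 table of FPKM values for 60623 genes in 6 libraries, 3 siSHMT2 and 3 siNC, grouped here by the sample titles. The submitters' processing notes name featureCounts 1.5.0-p3, HISAT2 2.0.5 and hg18; per the labels' protocols, total RNA went into a SMARTER mRNA-Seq kit. Gene coordinates in the table overlapped GENCODE release 29 (GRCh38) for 99.8% of 58516 shared identifiers. Within each library, the product of FPKM and gene length moved in equal steps; dividing by the step gave whole reads (for 100% of non-zero values, to within 0.02 reads), and the step gave the total behind the FPKM (14487813 to 17495471). From the FPKM, genes with a mean of at least 1 (10865) were tested on log2(FPKM + 1) in R 4.3.3, using limma 3.58.1 with an intensity trend and Benjamini-Hochberg adjustment at 0.05. Fold changes on this scale understate low genes. Shares and ratios were compared by exact two-sided permutation. Words were searched in the longest 3′ UTR (at least 50 bases) and longest coding sequence of each gene in GENCODE. The fit was also run on simulated reads with the same spread for every gene, scaled by the recovered read sums. That simulation held no outlying library and no mismatch of totals, so it does not check the calls given here. The 10 genes, the lists and the words were chosen with earlier results of these data known. The text names SHMT2, all 10 members and every called gene of the related lists; other genes beside them were named after their values were seen. Alternatives covered the pseudocount, filter, scaling, voom on recovered reads, moderation, array weights, a replicate block and leaving out each library.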

Additional observations from a re-analysis of the deposited data

How the results depend on the processing

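The count of 1 member lower and 0 higher held in every alternative but 2: at a mean of at least 5 FPKM, where DICER1 is not tested, 0 were lower, and with array weights 1 was higher (DROSHA). Counts over the related genes and over all genes tested depended more on the processing. Related genes called lower, 6 as reported, were 3 with no filter, 3 with TPM and 21 with array weights, and 3 to 9 when 1 library was left out; those called higher, 2 as reported, were 9 with array weights and 1 to 5 when 1 library was left out. Over all genes, 1070 were lower and 659 higher as reported. With no filter these were 603 and 333 and with array weights 1976 and 1827; 618 were lower at a mean of at least 5 FPKM and 620 with TPM. Leaving out 1 library gave 498 to 1132 lower and 229 to 729 higher. The replicate block gave 696 lower and 374 higher; same-numbered libraries did not deviate together (r = -0.02, -0.35 and 0.24 for numbers 1, 2 and 3), so the numbers were not taken as pairs. The summed Argonaute difference, siSHMT2 minus siNC, was -0.140 FPKM and turned to 0.115 FPKM without siNC replicate 1, with a range of -0.413 to 0.115 when 1 library was left out. The causes were not tested, other than that DICER1 drops out of the stricter filter by construction. For single named genes, 224 values in the alternatives kept their direction and call, 25 kept the direction but lost the call and 1 gained it. Depth limits AGO3, AGO4 and TNRC6A most, with 34 to 258 reads per library.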
